A study of Mus musculus with 12 samples.

Results

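The binding of MOF and GATA1 was followed at 9 genes of red cell formation, 5 regulators (Gata1, Klf1, Gfi1b, Zfpm1 and Nfe2) and 4 effectors (Tfrc, Car1, Bcl2l1 and Slc25a37). They were taken by name from the 21887 protein-coding genes of the RefSeq annotation of mm10. Every peak inside one of them or within 20 kb of its start or end was collected from 5 peak lists.

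Erythroid differentiation in mouse bone marrow is driven by a small set of transcription factors. GATA1 is the central activator, FOG1 (gene Zfpm1) is its cofactor, KLF1 activates globin and membrane genes, GFI1B is a repressor that acts downstream of GATA1, and the p45 subunit of NF-E2 (Nfe2) acts in both the erythroid and the megakaryocyte lineage. Their programme includes effector genes for iron uptake (the transferrin receptor gene Tfrc), iron transport into mitochondria (mitoferrin 1, gene Slc25a37), carbon dioxide handling (carbonic anhydrase 1, gene Car1) and survival (BCL-XL, gene Bcl2l1). MOF, the product of Kat8, acetylates lysine 16 of histone H4, a mark of open chromatin.

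The lists came from chromatin immunoprecipitation followed by sequencing (ChIP-seq) of MOF in haematopoietic stem cells (HSC; lineage-depleted, Sca-1+ and Kit+ cells without CD34 or Flt3; 15000 cells) and in megakaryocyte-erythroid progenitors (MEP; Kit+ cells lacking lineage markers, Sca-1, CD34, IL7r and CD16/32; 30000 cells). Both populations were sorted from marrow pooled over several bones of C57BL/6 mice that were wild type or heterozygous for Mof (Mof -/+), and GATA1 was mapped in HPC7, a wild-type mouse haematopoietic progenitor line at passage 3 grown with stem cell factor (SCF) and serum. The labels used here give neither the age of the mice, the design of the Mof allele nor the number of animals behind a library. There was 1 library per group, so none of the differences below has a replicate check and no test of conditions was made. The depth of the libraries is unknown, and a peak list holds no expression values with which the sorted cells could be checked.

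The lists differed in length. In HSC, MOF gave 1876 peaks in the wild type and 338 in the heterozygote. In MEP it gave 898 and 64. GATA1 gave 477 intervals in HPC7. The wild-type MOF files list single positions (summits), each with a −log10 value. It was read as −log10 q, because its minimum, 1.31 in HSC and 1.35 in MEP, was just above what a q-value of 0.05 gives. Heterozygous and GATA1 peaks are intervals. Genotype, list layout and any difference in depth or caller settings cannot be told apart.

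The start regions of these genes differ in their number of CG dinucleotides, which is set beside the peaks further on. To show this, the 250 bases before a RefSeq start site (GRCm38.p6, the build of mm10) are given for 6 of them. The sequences run 5′ to 3′ on the strand of the gene, with every CG dinucleotide in capitals. The first 3 start sites had a wild-type MOF summit within 500 bp (Zfpm1, chr8:122281891-122282140, plus strand; Tfrc, chr16:32608646-32608895, plus strand; Bcl2l1, chr2:152831729-152831978, minus strand, the farthest upstream of its 3 start sites). The last 3 had none (Gata1, chrX:7967911-7968160, minus strand; Klf1, chr8:84901732-84901981, plus strand; Gfi1b, chr2:28621983-28622232, minus strand).
Zfpm1: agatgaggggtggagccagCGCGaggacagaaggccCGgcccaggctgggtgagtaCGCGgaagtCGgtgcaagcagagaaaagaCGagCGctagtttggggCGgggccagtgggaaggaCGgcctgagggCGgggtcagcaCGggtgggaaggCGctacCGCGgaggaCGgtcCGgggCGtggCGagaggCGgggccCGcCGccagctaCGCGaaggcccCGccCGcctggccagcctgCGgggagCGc
Tfrc: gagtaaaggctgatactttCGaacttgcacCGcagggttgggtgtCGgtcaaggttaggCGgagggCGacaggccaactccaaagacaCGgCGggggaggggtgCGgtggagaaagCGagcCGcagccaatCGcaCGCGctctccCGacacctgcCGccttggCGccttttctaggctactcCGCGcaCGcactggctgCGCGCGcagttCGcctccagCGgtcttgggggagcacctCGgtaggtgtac
Bcl2l1: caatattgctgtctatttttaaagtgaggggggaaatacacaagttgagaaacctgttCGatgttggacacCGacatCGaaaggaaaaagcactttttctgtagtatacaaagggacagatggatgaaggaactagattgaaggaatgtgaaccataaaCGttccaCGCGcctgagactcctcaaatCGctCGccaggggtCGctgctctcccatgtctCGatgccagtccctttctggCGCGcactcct
Gata1: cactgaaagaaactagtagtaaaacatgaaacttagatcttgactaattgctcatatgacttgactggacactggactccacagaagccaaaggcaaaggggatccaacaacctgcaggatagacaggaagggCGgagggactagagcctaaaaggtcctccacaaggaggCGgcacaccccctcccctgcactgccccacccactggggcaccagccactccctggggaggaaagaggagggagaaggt
Klf1: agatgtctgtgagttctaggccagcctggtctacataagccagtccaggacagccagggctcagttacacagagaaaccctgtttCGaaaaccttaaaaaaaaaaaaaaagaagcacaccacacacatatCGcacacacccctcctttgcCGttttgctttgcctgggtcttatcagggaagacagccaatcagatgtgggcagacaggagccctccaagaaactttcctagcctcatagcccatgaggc
Gfi1b: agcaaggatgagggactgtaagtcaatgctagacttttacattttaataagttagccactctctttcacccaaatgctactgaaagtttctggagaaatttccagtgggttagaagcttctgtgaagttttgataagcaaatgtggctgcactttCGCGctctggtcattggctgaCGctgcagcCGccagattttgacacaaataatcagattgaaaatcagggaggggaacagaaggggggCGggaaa
For Nfe2, Car1 and Slc25a37 no start region is shown.

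MOF summits were called at 5 of the 9 genes, in wild-type cells and in no heterozygous list. The regulator genes Zfpm1 and Nfe2 and the effector genes Tfrc, Car1 and Bcl2l1 carried 8 summits in all, of which 5 came from wild-type HSC and the other 3 from wild-type MEP. Zfpm1 was the one gene with a summit in both cell types, Nfe2 and Bcl2l1 had summits in HSC alone, and Tfrc and Car1 in MEP alone. Gata1, Klf1, Gfi1b and Slc25a37 had no peak within 20 kb in any list, and no GATA1 interval lay within 20 kb of any of the 9 genes.

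In wild-type HSC 3 of the 9 genes had a peak, where 14.5% of all protein-coding genes had one by the same rule. In wild-type MEP it was also 3 of 9, where 6.41% of all protein-coding genes had one. A peak in both wild-type lists was found for 1 of the 9 against 3.24% of all genes, a peak in HSC and not in MEP for 2 against 11.3%, and a peak in MEP and not in HSC for 2 against 3.18%. With the window narrowed to 1 kb the same genes remained, 3 of 9 in each list, where 7.77% (HSC) and 3.23% (MEP) of all genes had a peak. No peak in any of the 5 lists was found for 4 of the 9 and for 80.3% of all genes. With 9 genes, 1 gene more or fewer moves such a count a long way, and no order between HSC and MEP is read from it. The 9 genes were also chosen with earlier results of these data known. The counts therefore describe these genes and are no independent evidence for erythroid genes as a class.

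**Figure D1:**
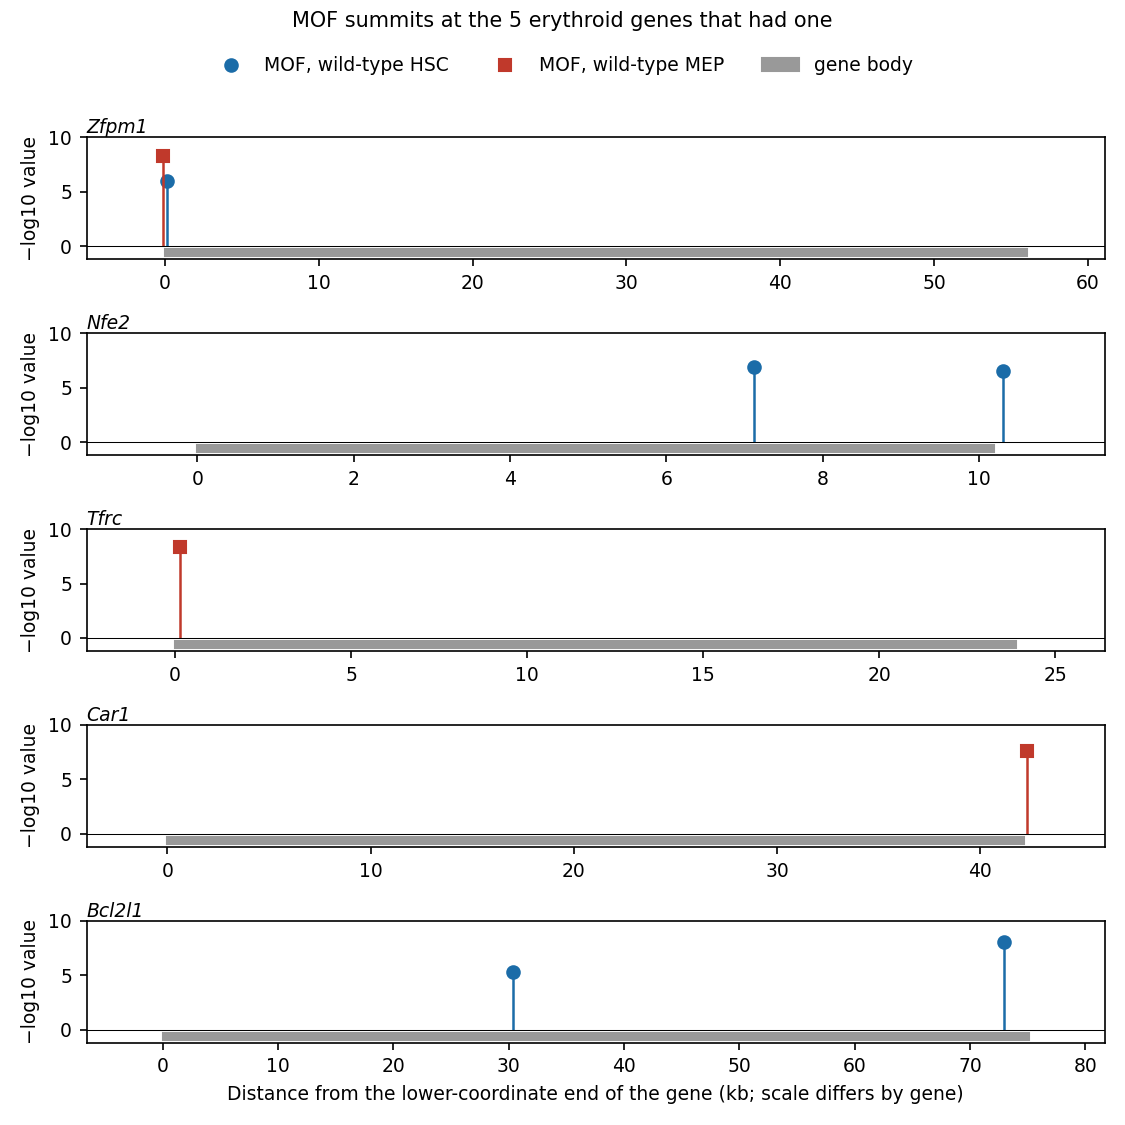
MOF summits at the 5 genes that had at least 1 within 20 kb, in kb from the lower-coordinate end of each gene (grey bar). The height of each marker is the authors' −log10 value in that list (blue circles, wild-type HSC; red squares, wild-type MEP); 5 of the 8 summits stand at an end of the gene body, and heights are not comparable between lists.

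Among the regulators, Zfpm1 (chromosome 8, 122281856 to 122337862) had 1 summit per cell type, both at its start. The HSC summit at 122281978 had a −log10 value of 5.99 and ranked 756 of 1876, 122 bp inside the lower-coordinate end of the gene. The MEP summit at 122281728 had a value of 8.28 and ranked 229 of 898, 128 bp outside that end. The summits were 250 bp apart, at 163 bp (HSC) and 413 bp (MEP) before the RefSeq start site at 122282141 whose upstream bases are shown above. The HSC summit falls within the printed bases and the MEP summit lies before them. Extended by 150 bp on each side, as was done for all wild-type summits, the peaks overlapped and counted as 1 shared site. With 100 bp on each side, or with at least 50% of a peak required to overlap, they did not.

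Nfe2 (chromosome 15, 103248212 to 103258403), the gene of the p45 subunit of NF-E2, had 2 summits in HSC. One lay inside the gene at 103255337 (−log10 value 6.89, rank 586) and the other 111 bp beyond the higher-coordinate end at 103258514 (6.53, rank 649), 3.18 kb from the first. The nearest MOF summit of wild-type MEP was 778 kb from the gene, at Pcbp2. No called MEP summit was thus close to overlapping those of HSC, though a site just under the caller's threshold would not be listed. Cbx5, Hnrnpa1 and Copz1 also lie within 20 kb of Nfe2, but the nearest gene end was that of Nfe2 for both summits.

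The other 3 regulators had no peak within 20 kb, and their nearest peaks belonged to other genes. For Gata1 (chromosome X, 7959260 to 7976663) the nearest was a wild-type MEP summit at 8102507, 126 kb away and nearest to Was, while the nearest HSC summit was 4.79 Mb away. For Klf1 (chromosome 8, 84901982 to 84905291) both wild-type lists had a summit 55.0 kb away at the end of Calr, the calreticulin gene, at 84846973 in HSC (−log10 value 6.76) and at 84846975 in MEP (5.10). This flanking site was called within 2 bp in both cell types. The Klf1 window itself, in which 4 other protein-coding genes lie wholly or in part (Syce2, Gcdh, Dnase2a and Mast1), held no peak. For Gfi1b (chromosome 2, 28609450 to 28621982) the nearest summit was 503 kb away in HSC and 1.49 Mb away in MEP.

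Among the effectors, Tfrc (chromosome 16, 32608896 to 32632794) had its summit in MEP at 32609041, with a −log10 value of 8.35 and rank 228 of 898. It stood 145 bp inside the gene, between both annotated start sites, 145 bp after the first (32608896) and 81 bp before the second (32609122). In wild-type HSC the nearest summit was 178 kb from the gene, at Pcyt1a. Tfrc is the member with the highest value in MEP, with Zfpm1 ranked directly after it.

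Car1 (chromosome 3, 14766214 to 14808365) also had its summit in MEP, at 14808491, 126 bp beyond the higher-coordinate end of the gene. The value was 7.56 and the rank 259 of 898. No other protein-coding gene lies within 20 kb of Car1, so this summit has no other candidate gene in that window. In wild-type HSC the nearest summit was 187 kb away, at E2f5.

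Bcl2l1 (chromosome 2, 152758732 to 152833803) had 2 summits in HSC, both inside the gene and 42.6 kb apart. The summit at 152831669 had a value of 8.05 and rank 384 of 1876, the highest of the members in HSC, and lay 59 bp after the start site at 152831728. The summit at 152789109 had a value of 5.29 and rank 922, and lay 30.4 kb from the lower-coordinate end of Bcl2l1. It was the one member summit with another gene's end nearer, that of Cox4i2 at 24.1 kb, although it stood inside Bcl2l1 and not inside Cox4i2. The nearest MEP summit was 395 kb from the gene.

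Slc25a37 (chromosome 14, 69241848 to 69285544) had no peak within 20 kb. A wild-type MEP summit at 69318536 lay 33.0 kb from the gene, with a value of 2.76 and rank 825 of 898, and was nearer to Synb (6.13 kb). In HSC the nearest summit was 447 kb away. The other peak between 20 and 50 kb of a member was an HSC summit 38.6 kb from Zfpm1 (1.69, rank 1848 of 1876), which lay 52 bp from the end of Zc3h18. Inside the window, 5 of the 8 summits lay in the body of their gene and the other 3 at 111 to 128 bp from it.

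**Figure D2:**
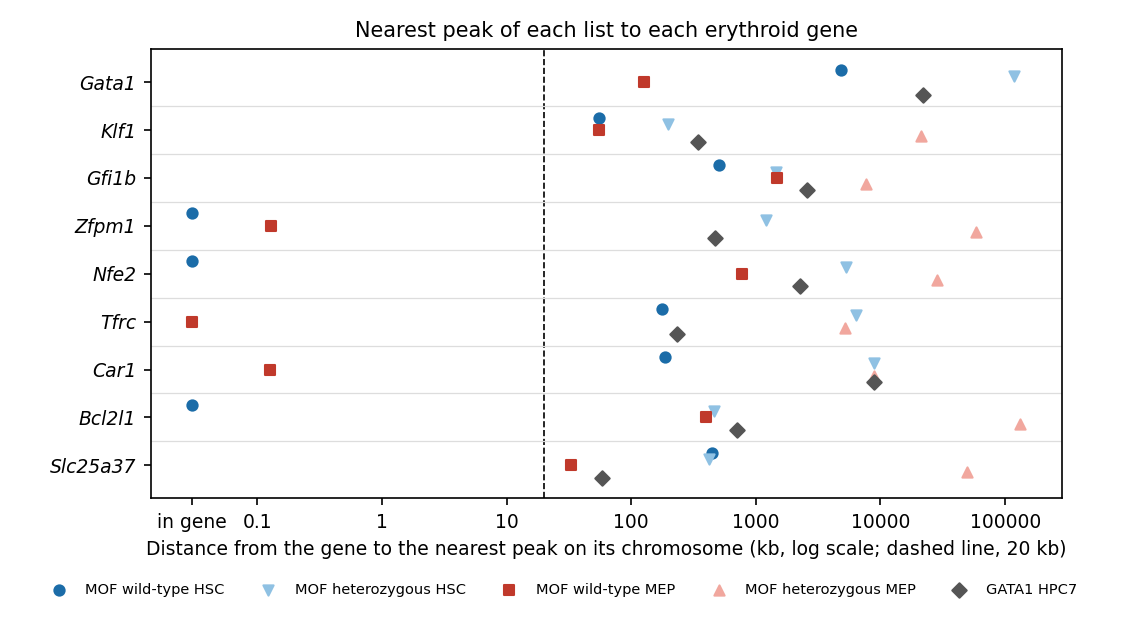
Distance from each of the 9 genes to the nearest peak of each list on the same chromosome, in kb on a log scale, with peaks inside the gene drawn at the left. Markers left of the dashed line at 20 kb are wild-type MOF summits only; the nearest heterozygous MOF interval is 196 kb away and the nearest GATA1 interval 58.2 kb away. No heterozygous MEP peak lies on the X chromosome, so Gata1 has no marker for that list.

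The member summits sat in the upper part of their lists without reaching the top. In HSC they ranked between 384 and 922 of 1876, so that 20.5% to 49.1% of the list stood at or above them. In MEP they ranked 228, 229 and 259 of 898, or 25.4% to 28.8%. All 8 were above the median of their list, which was 5.27 in HSC and 5.61 in MEP, the lower Bcl2l1 summit (5.29) only just. The highest values were 57.1 in HSC and 202 in MEP, far above any of them. None of the 8 belonged to a region found in 4 or 5 of the lists. Ranks of other peaks near genes are not given here, so these ranks are not read as particular to the members.

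**Figure D3:**
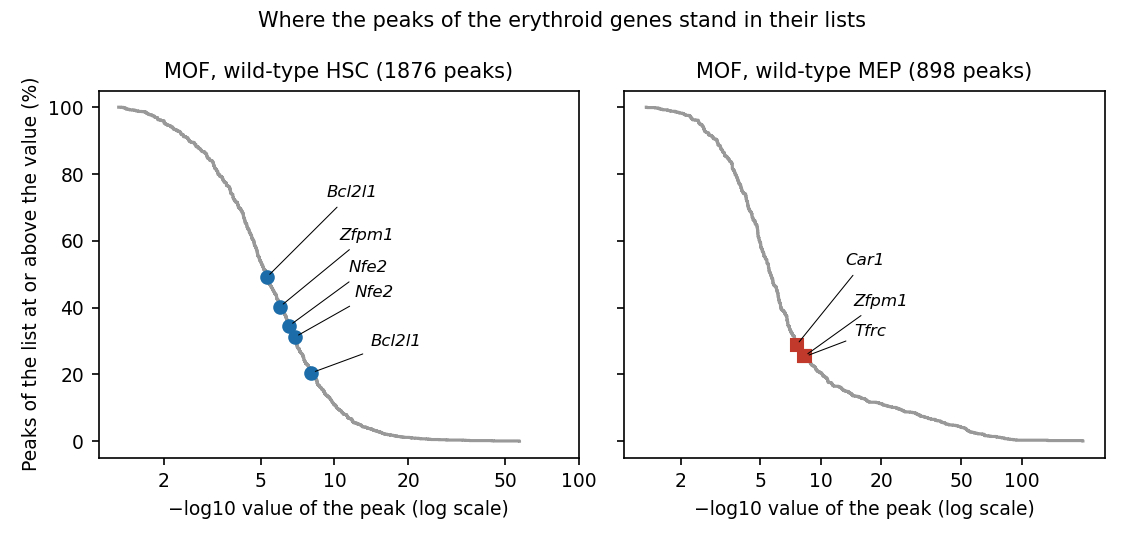
Share of peaks (%) at or above each −log10 value in the wild-type HSC list (left, 1876 peaks) and the wild-type MEP list (right, 898 peaks), with the value axis on a log scale. Markers show the member summits, which lie between 5.29 and 8.05 in HSC and between 7.56 and 8.35 in MEP; Nfe2 and Bcl2l1 appear once per summit.

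Of the 8 summits, 5 lay within 150 bp of an end of their gene, at 111 to 145 bp (Nfe2, Zfpm1 in both cell types, Car1 and Tfrc). Over the whole lists, 39.5% of wild-type HSC peaks (734 of 1860 on chromosomes, 95% Wilson interval 37.3 to 41.7) and 25.9% of wild-type MEP peaks (224 of 865, 23.1 to 28.9) were within 150 bp of a protein-coding gene end. Of the member summits, 2 of 5 in HSC, which is near the share of that list, and 3 of 3 in MEP were that close. The member summits were collected for lying in or near a coding gene, while the list shares include peaks far from any gene. These are unlike sets, and no excess at gene ends is read from them. The intervals cover counting error only.

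Among the members with a start window, CG content differed along with the summits. RefSeq start windows of 300 bases (250 before and 50 after the start site) were found for 6 of the 9 genes, 9 windows in all. None was found for Nfe2 and Car1, which had summits, nor for Slc25a37, which had none. Whether the genes without a window follow the same direction is unknown. The Zfpm1 window held 37 CG dinucleotides, more than 94.4% of the 32851 windows in the table, and each of the Tfrc windows held 30, more than 88.3%. The Bcl2l1 window with the HSC summit held 22, and its other windows held 14 and 1. The windows of Gfi1b, Gata1 and Klf1, with no summit, held 7, 4 and 3, against a median of 7 over all windows. In the printed sequences the capitals are accordingly dense in Zfpm1 (28) and Tfrc (25) and sparser in Bcl2l1 (12), Gfi1b (5), Klf1 (3) and Gata1 (2).

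Over all windows the same direction was seen in both wild-type lists. In HSC a summit lay within 500 bp of the start in 13.0% of windows with 25 or more CG (786 of 6053, 95% Wilson interval 12.2 to 13.9), and in 0.08% of windows with 0 to 4 (10 of 12496, 0.0435 to 0.147). In MEP the shares were 3.68% (223 of 6053, 3.24 to 4.19) and 0.048% (6 of 12496, 0.022 to 0.105). Windows with a summit held a median of 26 CG in HSC and 24 in MEP, and those without a median of 7 in both. The Gata1 and Klf1 windows thus belong to a class in which few summits were called for any gene. The only Gata1 start site used, at 7967910 on the minus strand, lies inside the annotated gene (7959260 to 7976663). CG content at the higher-coordinate end of Gata1 was not counted. Neighbouring start sites share summits, so windows are not independent and these values are a description. The part of CG content in the members' result was not tested.

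**Figure D4:**
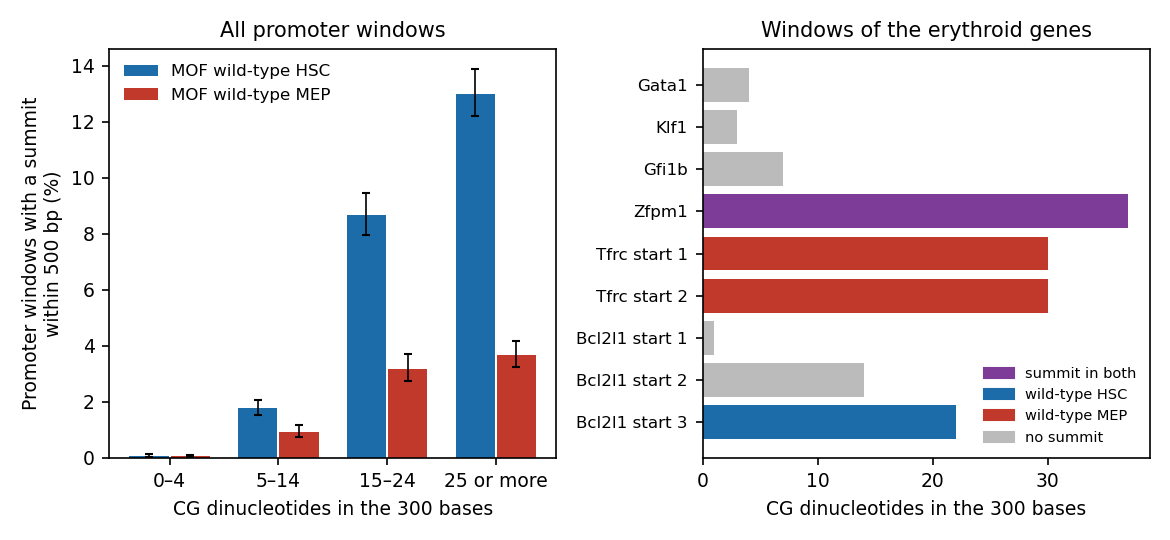
Left, share of all RefSeq start windows (%) with a wild-type MOF summit within 500 bp, by number of CG dinucleotides in the 300 bases (bars from 0; error bars, 95% Wilson intervals), rising from 0.08% to 13.0% in HSC and from 0.048% to 3.68% in MEP. Right, CG dinucleotides in the windows of the 6 erythroid genes with a sequence, coloured by where a summit was called within 500 bp; start sites of one gene are numbered by increasing coordinate.

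Both strands of the start windows were searched for letters that erythroid factors are known to recognise. The GATA letters AGATAA or TGATAA were found in 1 window each of Klf1, Gfi1b and Bcl2l1, so in 3 of the 9 member windows, and in 18.6% of all windows. These are shown in 40 bases each because they stand in start regions without a GATA1 interval in HPC7, with the matched letters in capitals (Klf1, chr8:84901885-84901924, first matched base 80 bases before the start; Gfi1b, chr2:28622080-28622119, 120 bases before; Bcl2l1, chr2:152828508-152828547, 41 bases before the start site at 152828489). In Klf1 the match is on the opposite strand. A GATA1 interval within 500 bp of the start was found for 23 of all 32851 windows, so lacking one is not particular to these 3.
Klf1: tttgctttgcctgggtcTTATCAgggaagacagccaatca
Gfi1b: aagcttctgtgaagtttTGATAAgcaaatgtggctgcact
Bcl2l1: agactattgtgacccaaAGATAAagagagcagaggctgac
The CACCC-type letters CCNCNCCC, which KLF factors recognise, were found in 6 of the 9 member windows (at least 1 window of each gene except Klf1) and in 49.5% of all windows. The E-box letters CANNTG were found in 7 of the 9 (at least 1 window of each gene except Zfpm1) and in 72.3% of all windows. The NF-E2 letters TGAGTCA were found in 0 of the 9 and in 5.20% of all windows. The motifs could overlap one another. The windows of Zfpm1 and Tfrc, which had MOF summits, held CCNCNCCC matches and no GATA match. With overlapping matches included, there were 4 in Zfpm1, and 5 and 3 in those of Tfrc. The Bcl2l1 window with the HSC summit held 0 matches of either kind. Windows without a summit at Gata1 (3 matches), Gfi1b (2) and the Bcl2l1 start site at 152830717 (2) held CCNCNCCC as well. In the members these letters thus did not follow the summits.

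To ask which wild-type sites were still called in heterozygous cells, the member summits were looked up in the heterozygous lists. None of the 5 HSC summits overlapped a heterozygous HSC interval and none of the 3 MEP summits overlapped a heterozygous MEP interval. A peak within 20 kb was found for 1.32% of all protein-coding genes in heterozygous HSC and for 0.183% in heterozygous MEP, so 0 of 9 is near that background. The nearest heterozygous HSC intervals were 196 kb from Klf1 (that interval lies at Lyl1), 422 kb from Slc25a37 and 458 kb from Bcl2l1, with a median of 1.46 Mb over the 9 genes. In heterozygous MEP the distances ran from 5.15 Mb (Tfrc) to 132 Mb (Bcl2l1) over the 8 genes with a peak on their chromosome.

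Wild-type peaks of like score were seldom called again either. Of the 548 wild-type HSC peaks with a value from 5.29 to 8.05, the range of the member summits, 18 overlapped a heterozygous HSC interval (3.28%, 95% Wilson interval 2.09 to 5.13), and of the 340 among them within 1 kb of a gene end 9 did (2.65%, 1.40 to 4.95). Of the 33 wild-type MEP peaks from 7.56 to 8.35, 0 overlapped a heterozygous MEP interval, with an upper Wilson limit of 10.4% (3 counts of 33, the share that a count of 0 allows by the rule of 3, is 9.09%). Over the whole lists 79 of 1860 HSC peaks (4.25%, 3.42 to 5.26) and 24 of 865 MEP peaks (2.77%, 1.87 to 4.10) were called again. Absence from the heterozygous lists was thus common to nearly all peaks of their score, and a site just under the caller's threshold cannot be told apart from one without MOF.

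Between the cell types, 1 of the 5 HSC summits (Zfpm1) was also in MEP and 1 of the 3 MEP summits (Zfpm1) was also in HSC. Among peaks of like score, 15% of HSC peaks were also in MEP (82 of 548, 12.2 to 18.2) and 39.4% of MEP peaks were also in HSC (13 of 33, 24.7 to 56.3). With so few member summits, 1 of 5 and 1 of 3 cannot be distinguished from those shares.

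The comparison of MOF with GATA1 spans different cells, since GATA1 was mapped in HPC7 and MOF in sorted cells, and factor and cell type cannot be told apart. Of all protein-coding genes 2.13% had a GATA1 interval within 20 kb, and of the 9 members 0 did, which is near that background. The nearest was an interval at 69183574 to 69183737 on chromosome 14, 58.2 kb from Slc25a37 and nearer to the end of another gene. Next were intervals 231 kb from Tfrc, 343 kb from Klf1 and 471 kb from Zfpm1, and the one nearest to Gata1 itself was 21.8 Mb away. None of the 8 member summits overlapped a GATA1 interval. Over the whole lists, 34 of 1860 HSC peaks did (1.83%, 95% Wilson interval 1.31 to 2.54) and 80 of 865 MEP peaks (9.25%, 7.49 to 11.4). Among peaks of like score 4 of 548 did in HSC (0.73%, 0.284 to 1.86) and 0 of 33 in MEP (upper Wilson limit 10.4%). Several of these genes, such as Gata1, Klf1, Zfpm1 and Slc25a37, are known GATA1 targets in erythroid cells, and the list does not show them. As so few of all genes had a GATA1 interval, this absence is not read as particular to them.

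**Figure D5:**
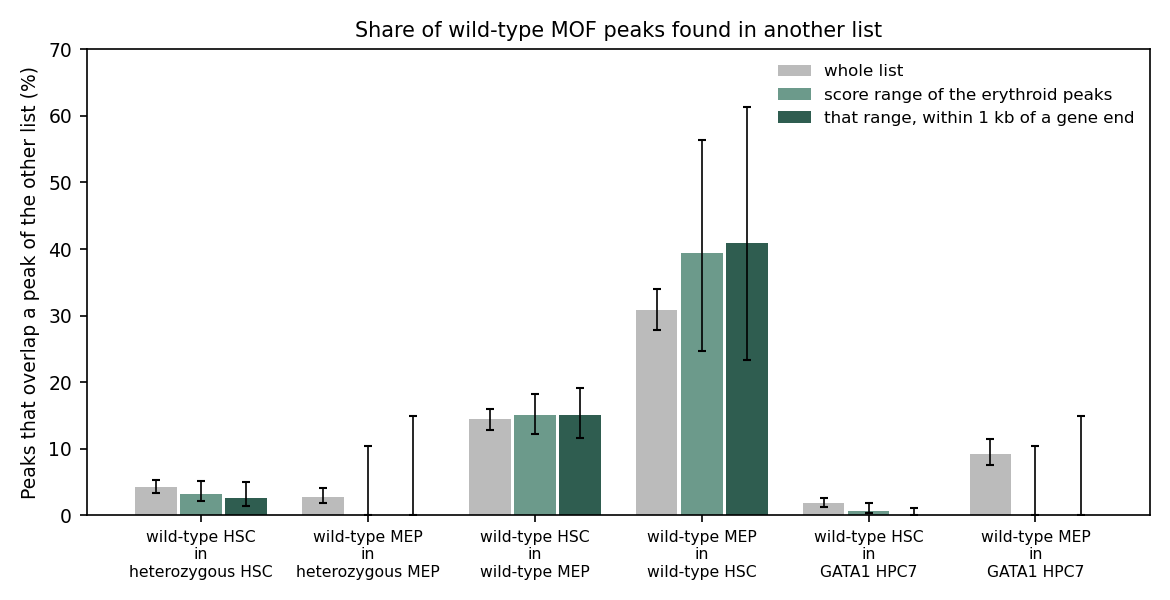
Share of wild-type MOF peaks (%) that overlap a peak of the list named under each group of bars, for the whole list, for peaks in the −log10 range of the erythroid summits, and for those of them within 1 kb of a gene end (error bars, 95% Wilson intervals). In the score range of the members, 3.28% of HSC peaks were in the heterozygous HSC list and 15% were in wild-type MEP.

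The other genes of the erythroid programme, 75 in 6 lists without the members, stood near the background of all genes in the wild-type libraries. In the wild type, 12 of 75 had a peak within 20 kb in HSC (16%, where all genes gave 14.5%) and 6 of 75 in MEP (8%, where all genes gave 6.41%). The heterozygous HSC list had 3 of 75 (4%, where all genes gave 1.32%). Heterozygous MEP and GATA1 had 0 of 75, where all genes gave 0.183% and 2.13%. The values below describe single loci.

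Of the 17 other erythroid transcription regulators, 6 had a peak in HSC. Inside the gene were Lyl1 (−log10 value 7.25, rank 501), Cbfa2t3, which encodes the corepressor ETO2 (6.52), Zbtb7a (5.79) and Ikzf1 (5.12). Foxo3 had a summit 48 bp from its end (4.15) besides a higher one nearer to Afg1l (9.57), and the Bcl11a summit (6.09) lay 11.0 kb outside the gene. In MEP 2 of 17 had one, Tcf3 inside the gene (6.52, rank 349) and Ldb1 at 8.62 kb, nearer to Pprc1 (5.48). The MEP list held none of the 6 HSC genes. Of the 3175 protein-coding genes with a peak within 20 kb in HSC, 709 had one in MEP as well. The lack of shared genes is therefore not read as particular to these regulators.

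In heterozygous HSC 3 of the 17 had a peak. Lmo2, a scaffold of the GATA and TAL1 complex, had an interval inside the gene (chromosome 2, 103970429 to 103970659, −log10 q 3.81, 5.43-fold enrichment, rank 273 of 338). Gata2, the GATA factor that precedes GATA1, had one inside the gene as well (chromosome 6, 88199377 to 88199576, 3.75, 5.39-fold, rank 280). The Lyl1 interval (chromosome 8, 84705389 to 84705665, 6.12, 6.30-fold, rank 210) lay 811 bp outside the gene. Each of these intervals was in no other list, and Lmo2 and Gata2 had no wild-type peak within 20 kb. All 3 values were below the list median of 7.66. A peak within 20 kb in either wild-type list was found for 17.7% of all protein-coding genes, so lacking one is common. The share of all heterozygous HSC intervals found in no other list is not given here, so these loci are not read as particular.

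Genes of haem synthesis and iron handling had peaks at 3 of 18 in HSC and 2 of 18 in MEP. In HSC these were Aco1, the iron regulatory protein 1 gene (10.4, rank 180, inside the gene), the ferritin heavy chain gene Fth1 (3.34, inside) and Ppox, whose peak lay nearer to Ufc1. Among those in MEP was the ferritin light chain gene Ftl1 (2.27, inside). Aco1 and Tfrc belong to the same pathway of iron control, in which iron regulatory protein stabilises the transferrin receptor messenger, and were called in different cell types.

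Globin genes had no peak in any list (0 of the 7 found in the table). Of the red cell membrane genes 0 of 15 had one in HSC and 2 of 15 in MEP, the spectrin gene Sptb inside the gene (4.31, rank 639) and Epb42 at 18.8 kb, nearer to Tmem62. Of the genes of erythropoietin and stem cell factor signalling 1 of 8 had one, Epo in HSC, nearer to Pop7. Among the 10 other effectors Blvrb and Prdx2 had one in HSC, both nearer to another gene, Sertad3 and Hook2.

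Genes of other blood cells were counted in the same way. Of all protein-coding genes, 14.5% had a peak within 20 kb in wild-type HSC, 6.41% in wild-type MEP and 2.13% in the GATA1 list. Stem cell genes had a peak at 4 of 14 in HSC (among them Mecom, Hlf and Runx1), at Etv6 in MEP and at Mecom in the GATA1 list. Myeloid genes had one within 20 kb at 3 of 12 in HSC (Spi1, Itgam and Fcgr3) and 3 of 12 in MEP (Cebpe, Fcgr3 and Cd68). With 5 kb in place of 20 kb, no myeloid gene had one in HSC (0 of 12), and MEP kept a count of 3. The Spi1 summit lay 4 bp from the end of Slc39a13, and the Cd68 summits were nearer to Eif4a1 and Mpdu1. Lymphoid genes had a peak within 20 kb at 2 of 11 in HSC (Cd3g and Cd79a) and 3 of 11 in MEP (Cd79a, Rag1 and Rag2), and within 5 kb at 1 of 11 in each. The Cd79a summits of both lists were nearer to Rps19, and Rag1 and Rag2 were counted from 1 and the same MEP summit, 89 bp from the end of Iftap. Megakaryocyte genes (0 of 11) and mast cell and basophil genes (0 of 7) had none.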

How the data were processed

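MOF and GATA1 ChIP-seq peak lists of 5 of the 12 samples were used; the 6 input libraries and the H4K16ac library were left out. Per the submitters' processing notes, the tools were Bowtie2 (2.3.0.1), MACS2 and deepTools and the build was mm10, with no role stated for each tool; settings and background libraries were not given in the sources used here. In the deposited wild-type lists each summit has a −log10 value. In the deposited heterozygous lists each interval has a fold enrichment (a ratio), −log10 p and −log10 q values and a whole-number score from the authors' caller. The deposited GATA1 list holds positions alone; ranks there follow width. These values were compared only within a list.

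The 9 genes and the lists of other genes were chosen with earlier results of these data known. All 9 are named whatever their values; of each other list, up to 8 genes with a peak are named, and a few are not reported here by name. Positions are 1-based on mm10. A peak was placed by its summit or interval midpoint. Wild-type summits were extended by 150 bp on each side, and an overlap of 1 bp counted as shared. Gene ends and 32851 start windows came from RefSeq (GRCm38.p6). The table of gene ends has no strand or exons, so no exon or intron is named. Tied values shared the smallest rank. Counting was tested on simulated peaks. Python 3.11.15, pandas 2.3.3, SciPy 1.17.1 and Matplotlib 3.10.9 were used.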

Additional observations from a re-analysis of the deposited data

How the results depend on the processing

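The number of the 9 genes with a peak stayed at 3 in wild-type HSC with windows of 1, 5 and 50 kb, with nearest or containing genes only, without regions in 4 or 5 lists, and with peaks above the list median only. In wild-type MEP it was 3 throughout, except 4 with 50 kb, where Slc25a37 was added. In the heterozygous and GATA1 lists the count was 0 with 50 kb too; the other settings keep or remove peaks, so they could not have raised it from 0. Likewise, of the overlaps that were 0 (wild type with heterozygous, MOF with GATA1), the extension by 500 bp alone could have raised them, and they were 0 with it. The single site shared by wild-type HSC and MEP, at Zfpm1, fell to 0 when summits were extended by 100 bp and to 0 when 50% of the narrower peak had to overlap; it remained 1 with 500 bp. E-box letters were found in 1 gene in place of 5 within the last 150 bases of the start window, a window of fewer bases. No paired analysis was possible because each group had 1 library. The unknown depth limits every statement that a peak was not called.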
